A study of Mus musculus with 12 samples.

Results

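The genes of the cytosolic ribosome were followed in total RNA of 12 livers from C57BL/6j males that were germ-free, that is, kept without any microbes, and 13 to 16 weeks old. Of these, 6 are labelled ghrelin injected (rat ghrelin, 10 µg for each mouse, subcutaneous) and 6 are labelled PBS injected (saline buffer without the hormone). Both groups were injected daily for 5 days at zeitgeber time 2, which is also the time given for the liver samples, and no mutation or transgene is named for either. Ghrelin is a hormone of the stomach known to raise food intake and growth hormone secretion. Members were all table rows whose symbol is that of a cytosolic ribosomal protein beginning with Rpl or Rps, 82 of 38087 rows, of which 50 encode large subunit and 32 encode small subunit proteins or their close paralogs. Of these, 79 had enough counts to be tested, 47 for the large and 32 for the small subunit. The 3 below the count minimum, Rpl3l, Rpl10l and Rpl39l, had 5, 3 and 4 counts in all 12 libraries together. By identifier and name, 81 members were matched to GENCODE M21 on GRCm38 and lie on 19 chromosomes, with 14 members on chromosome 7. The row called Rpl24 carries the identifier that GENCODE gives to the adjacent gene Zbtb11, so which of the genes its counts came from is uncertain; it is kept among the members by its name and is given no position, length or level per length. The question asked here is how abundant each of these mRNAs was, how evenly the family was set in each liver, and whether ghrelin moved any of them.

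A ribosome joins a small subunit, which reads the mRNA, to a large subunit, which forms the peptide bond and holds the exit tunnel for the new chain. Most proteins of each subunit are needed in equal numbers. The mRNAs of ribosomal proteins carry a pyrimidine tract at the very start, the terminal oligopyrimidine (TOP) motif. Through it, mTOR signalling and the RNA-binding protein Larp1 control their translation together. In liver, growth hormone, insulin and feeding act on this control, so ribosome production can change there without a change in the amount of mRNA.

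Start-site windows from RefSeq (GRCm38.p6) were found by symbol for 62 of the 82 members, 59 of them among the tested genes. To show what the family does and does not share at its starts, the gene with the smallest p for ghrelin is printed together with the genes, among those with a single window, that lay farthest below and farthest above the family in the liver ghrelin 5, described further on. Each line gives the gene's own strand, 5′ to 3′, from 40 bases before the annotated start through the first 20 bases of the transcript. Capitals mark runs of at least 8 C or T bases and the motif CCGGAAG on either strand, the core of sites bound by ETS-family factors such as GABPA. A run that extends past an end of the printed stretch is shown only in part.
Rplp0: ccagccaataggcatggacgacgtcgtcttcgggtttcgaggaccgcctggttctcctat
Rpl39: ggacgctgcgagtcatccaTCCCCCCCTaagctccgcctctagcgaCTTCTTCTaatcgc
Rpl11: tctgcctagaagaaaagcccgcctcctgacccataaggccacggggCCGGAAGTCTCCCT
Rpl5: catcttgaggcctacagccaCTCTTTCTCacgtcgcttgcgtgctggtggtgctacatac
Rpl27: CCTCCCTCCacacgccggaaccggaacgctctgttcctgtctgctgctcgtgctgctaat
Rps16: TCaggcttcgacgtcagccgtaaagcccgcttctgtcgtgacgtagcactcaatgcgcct
Rps15: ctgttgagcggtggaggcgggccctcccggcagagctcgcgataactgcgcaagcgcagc

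These stretches are chr5:115559427-115559486 (plus strand) for Rplp0, chrX:37085203-37085262 (minus) for Rpl39, chr4:136053374-136053433 (minus) for Rpl11 and chr5:107900488-107900547 (plus) for Rpl5. Those of the genes on the high side are chr11:101442205-101442264 for Rpl27, chr7:28350649-28350708 for Rps16 and chr10:80292391-80292450 for Rps15, all on the plus strand. Within 50 bases on either side of the start, a run of at least 8 C or T bases on the gene's strand stood in 50 of the 59 tested members with a window, or 84.7%, against 37.3% of the 9948 tested genes with one. By subunit this was 91.4% for large and 75% for small subunit genes. CCGGAAG on either strand of the whole window (250 bases before to 50 after the start) was found in 42.4% of members and 19.8% of tested genes. GGGCGG on either strand, the core of an Sp1 site, did not set the family apart in these counts, with 62.7% of members and 66.8% of tested genes. AAGATGGCG, a form of the YY1 site, was found on either strand in 5.08% of members and 3.56% of tested genes. TATAAA within 50 bases before the start was in 0 of 59 members and in 1.97% of tested genes. Matches of different motifs could overlap, several windows of 1 gene were counted together (15.3% of members and 20.5% of tested genes had more than 1), and the motifs were chosen with the windows in view. A match is a run of letters and not a binding site, and the annotated start need not be the one used in these livers.

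Total counts were 15775059 to 22302533 per library. The 6 hepatocyte markers summed to 72170 to 88206 CPM (counts scaled by library size) in ghrelin livers and 76134 to 108225 CPM in PBS livers, so markers of the labelled tissue were abundant. Markers of other cells were lower. Stellate cell sums were 339 to 415 CPM under ghrelin and 360 to 408 CPM under PBS, endothelial sums 314 to 339 and 305 to 345 CPM, Kupffer cell sums 222 to 315 and 171 to 317 CPM, and erythroid sums 134 to 295 and 83.8 to 258 CPM. Cholangiocyte sums were 24.9 to 32.1 CPM under ghrelin and 20.1 to 32.4 CPM under PBS, with B cell sums of 4.26 to 13.7 and 4.82 to 18.3 CPM, and no marker of T or NK cells above the count minimum. The neutrophil sum was 0.792 to 4.02 CPM under ghrelin and 3.40 to 8.32 CPM under PBS, with 1 of 5 markers at 0. At an unadjusted p under 0.05 were the neutrophil markers S100a8 and S100a9, the stellate markers Dcn and Lrat, Alas2 of erythroid cells and the hepatocyte gene Cps1, with 0 past the adjusted threshold by edgeR. The part of these markers in the values below was not tested. In RNA of whole liver, fewer cells of a type and less RNA per cell cannot be told apart.

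The 82 genes took 0.970 ± 0.0797% of all counts in ghrelin livers and 0.971 ± 0.0353% in PBS livers (SD, n = 6 each). The lowest, median and highest shares were 0.862%, 0.967% and 1.06% under ghrelin, against 0.922%, 0.970% and 1.02% under PBS. The ghrelin values therefore extended beyond the PBS values on both sides. Large subunit genes had a mean of 6.72 ± 0.097 log2 CPM in ghrelin livers and 6.72 ± 0.043 log2 CPM in PBS livers. Small subunit genes had a mean of 6.72 ± 0.092 log2 CPM in ghrelin livers and 6.73 ± 0.058 log2 CPM in PBS livers. The large and the small subunit stayed together within each liver: the difference between their means ran from -0.037 to 0.0071 log2 CPM under ghrelin and from -0.048 to 0.014 log2 CPM under PBS. This difference spanned 0.044 over the ghrelin livers, where the large subunit mean spanned 0.22, and 0.062 over the PBS livers, where that mean spanned 0.10.

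**Figure D1:**
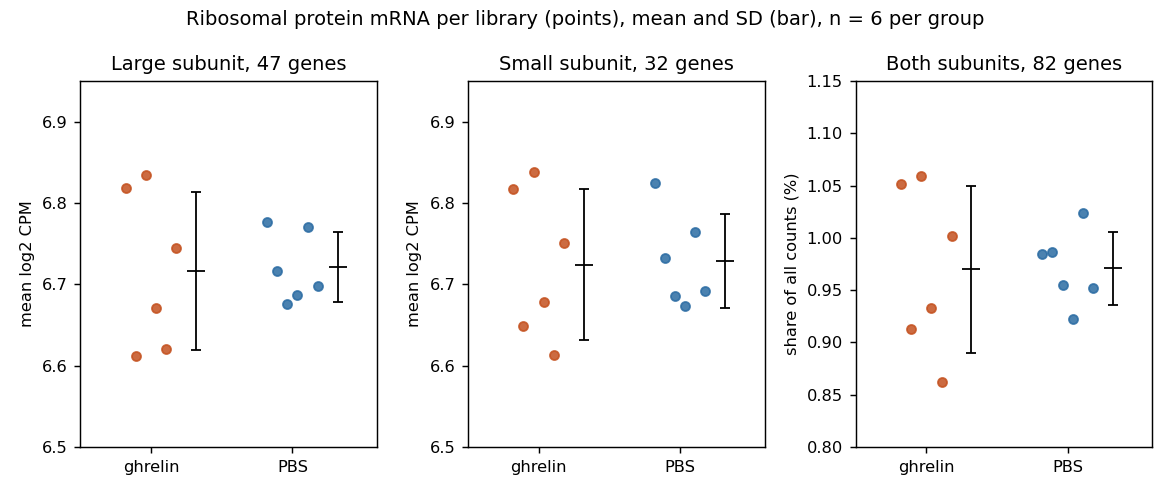
Mean log2 CPM of the 47 large and 32 small subunit genes and the share of all counts in all 82 genes (vertical axes), by library (points) in the ghrelin and PBS groups, with mean and SD. The share runs from 0.862% to 1.06% in ghrelin livers and from 0.922% to 1.02% in PBS livers, around nearly equal means.

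Levels of different genes were compared per length, as counts per kilobase of the longest annotated coding transcript scaled to the same total in each library (TPM-type units). The family without Rpl24 made up 1.71% of this total. Rplp1, an acidic protein of the stalk that recruits elongation factors, was highest at 725 ± 61.5 (SD over 12 libraries), with 742 ± 75.2 under ghrelin and 708 ± 44.2 under PBS. Rpl4, whose extension lines the exit tunnel, followed among large subunit genes at 493 ± 51.0, and Rpl41, which encodes a very short basic peptide, at 492 ± 34.0. Rpl4 and Rpl41 differ by less than their spread. Among small subunit genes the highest were Rps2, a protein near the mRNA entrance, at 539 ± 37.5, and Rps18, in the head of the subunit, at 459 ± 34.9. Rplp0, which anchors the stalk, stood at 385 ± 24.2, and Rplp2, the partner of Rplp1, at 116 ± 8.32.

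The genes at the low end of this scale carry long annotated transcripts. Rps15a stood at 20.04 ± 1.70 with a transcript of 5179 bases, Rps20 at 39.2 ± 3.09 with 3706 bases and Rpl18 at 49.2 ± 2.81 with 2989 bases. Rpl15, at 62.7 ± 6.42, also had a long transcript of 1922 bases, and Rpl9 stood at 64.4 ± 5.23 with 2690 bases. Highest and lowest thus differed by 36.2-fold on a scale that divides by these lengths. With the length of the transcript that APPRIS marks as principal, the 5 highest genes were Rplp1, Rps2, Rpl41, Rpl4 and Rps18 again, at 693, 564, 503, 471 and 439, and the rank correlation between both scales was 0.838 over 78 genes, which share the same counts. On that scale Rpl22 stood at 336 and not 81.3, and Rpl18 at 207, while Rps15a and Rps20 were again lowest at 19.3 and 37.4. The values of Rps15a and Rps20 moved about as little as that of Rplp1, whose length was 499 bases on both scales. Their low place was therefore not checked against a much shorter length there. With the joint length of all annotated exons, the 5 highest were Rplp1 at 861, Rpl4 at 449, Rps15 at 395, Rps3a at 388 and Rps2 at 383, whereas Rpl41 stood at 292 and Rps18 at 125. Rplp1 was thus first on each of the scales, and the order below it depended on the length used. Rps16, at 55.9 ± 4.44 or 53.4, was low with a transcript of 1109 bases. Pseudogene rows of Rps16 held 71.1% as many counts as the gene itself.

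**Figure D2:**
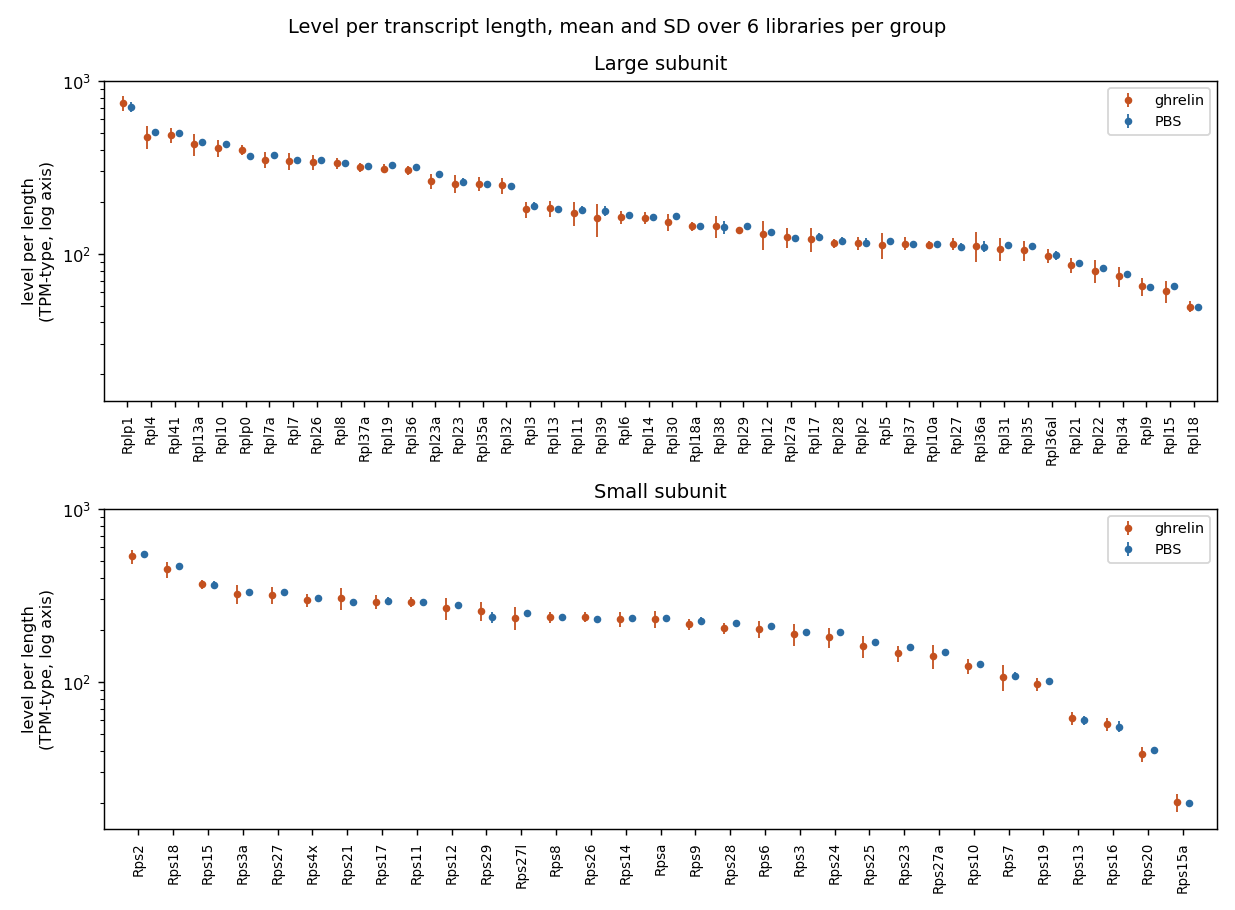
Level per transcript length (vertical log axis, TPM-type units) of 46 of the 47 large and 31 of the 32 small subunit genes, each ordered by its mean over 12 libraries, with mean and SD for ghrelin and PBS. Rplp1 leads at 725 and Rps15a is last at 20.04; ghrelin and PBS points lie close together along the whole order.

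Copies and paralogs were separate in some cases and not in others. Rpl3l, a paralog of striated muscle, and Rpl10l and Rpl39l, paralogs known from testis, each had at most 2 counts in a library. Their parent genes Rpl3, Rpl10 and Rpl39 stood at 185, 420 and 168 per length. The X-linked Rpl36a stood at 111 ± 16.0 and its autosomal paralog Rpl36al at 98.0 ± 7.56, values that overlap. By the principal transcript they stood at 106 ± 15.3 and 227 ± 17.3, so the order of this pair depended on the length used. Rps27 stood at 324 ± 25.9 and Rps27l, a paralog known as a p53 target, at 242 ± 25.7. Rps4x, which in the mouse has no partner on the Y chromosome, stood at 301 ± 19.1. The table also holds 218 rows named as pseudogenes of these genes, 164 with a count and 47 above the count minimum. Their counts equalled 63.6% of the gene's own for Rpl38, 58.7% for Rps6, 55.2% for Rpl10a and 54.5% for Rpl14, and under 1% for many others such as Rplp0 and Rpl5. How reads that fit both a gene and its copy were counted is not stated in the labels, so the values of these genes are uncertain to that extent. Adding all pseudogene rows raised the family share to 1.04 ± 0.0839% under ghrelin and 1.04 ± 0.0378% under PBS.

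None of the 79 tested genes passed the test for ghrelin (0 at an adjusted p under 0.05, edgeR quasi-likelihood test), where 0.106% of all 14170 genes did. At an unadjusted p under 0.05 there was 1 member, Rplp0 with 0.0215, against 13.4% of all genes. In 0 members did the 6 ghrelin values lie wholly above or below the 6 PBS values, against 0.826% of all genes. The intervals were narrow: for 77 of 79 members, 46 large and 31 small, the 95% interval of the fold change lay within 1.2-fold in both directions, which was so for 30.4% of all genes. The exceptions were Rpl39, with an interval from -0.33 to 0.10 on the log2 scale, and Rps29, from -0.018 to 0.31. The interval's median reach to either side was 0.13 log2 units in members and 0.23 in all tested genes. The members have higher counts than most genes, and 0.093 was the median SD of log2 CPM within groups in members, 0.12 in the 3678 other genes at or above the lowest member's level and 0.19 over all genes.

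**Figure D3:**
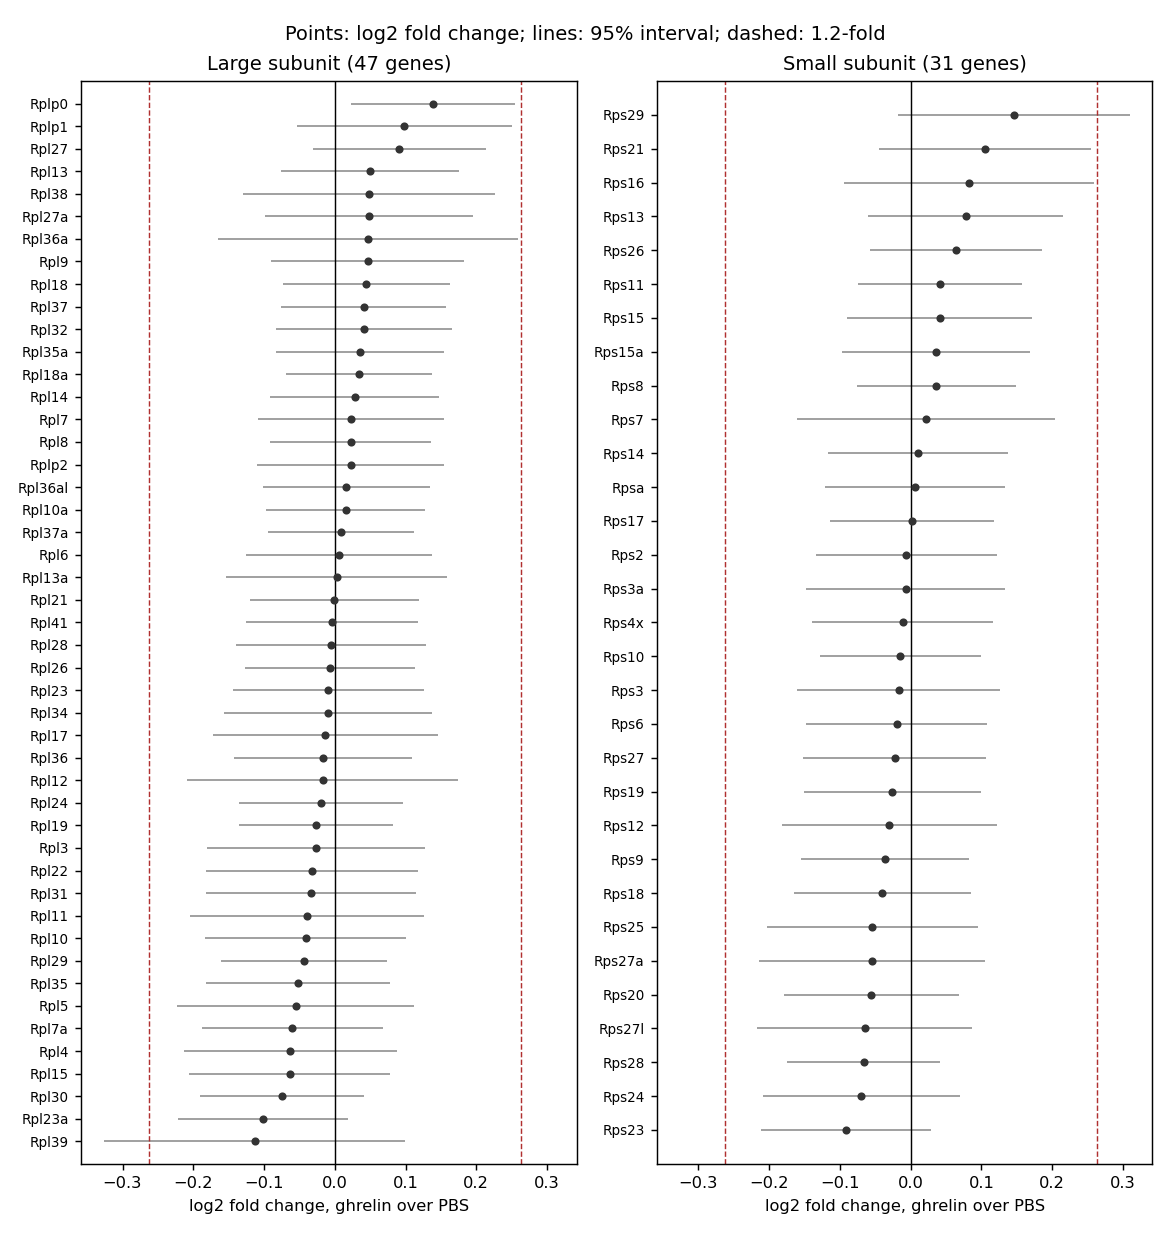
Log2 fold change of ghrelin over PBS (horizontal axis) with its 95% interval for 47 large and 31 of the 32 small subunit genes, ordered by value; dashed lines mark 1.2-fold. All point values lie between -0.11 and 0.15, and the intervals of Rpl39 and Rps29 alone cross a dashed line.

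The log2 fold changes ran from -0.11 to 0.15. Of the 79, 35 were positive and 44 negative (44.3% positive, against 50% of all genes), 22 and 25 in the large subunit and 13 and 19 in the small subunit. The median log2 fold change was -0.0044 for the large and -0.013 for the small subunit, beside 3.2e-05 over all genes. This balance of signs was not firm, since 45 members were positive after upper-quartile scaling, 15 of 78 once trends with transcript length and GC content were removed and 64 without the livers ghrelin 5 and ghrelin 2. The medians for the large and small subunit were then -0.047 and -0.065 without the trends, and 0.046 and 0.040 without those livers. The median over all genes was -0.0066 and -0.0011 in these fits. After upper-quartile scaling it was 0.014, beside 0.0097 for the large and 0.0011 for the small subunit. That scaling thus moved all genes upward, not the members alone. With the trends removed, 13 of 78 members had an unadjusted p under 0.05, beside 1591 of all 13929 genes in that fit. The smallest adjusted p of a member was 0.204 by edgeR, that of Rps28, a protein at the mRNA exit, at a log2 fold change of -0.17.

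The large subunit genes with the smallest p in each direction were Rplp0, Rpl27 and Rplp1 on the positive side and Rpl23a, Rpl30 and Rpl39 on the negative side. Rplp0 (chr5:115559467-115563727) had a lowest, median and highest level of 316, 333 and 366 CPM in ghrelin livers, against 291, 298 and 325 CPM in PBS livers. The groups overlapped, with 4 of 6 ghrelin livers above the highest PBS liver. Rplp0 averaged 334 ± 17.8 CPM under ghrelin and 303 ± 12.9 CPM under PBS, for a log2 fold change of 0.14 with an SE of 0.054 and an adjusted p of 0.294 by edgeR. Its value was 0.083 with the trends in length and GC content removed and 0.15 without ghrelin 5 and ghrelin 2, neither past the threshold.

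Rplp1 had 210, 227 and 260 CPM (lowest, median, highest) in ghrelin livers and 197, 203 and 238 CPM in PBS livers, a log2 fold change of 0.098 (SE 0.071). Rplp2, the remaining stalk protein, had 60.5, 67.8 and 75.6 CPM under ghrelin and 62.1, 67.3 and 72.6 CPM under PBS, a log2 fold change of 0.022. The stalk genes thus differed in their point values while all their ranges overlapped. Rpl27 had 44.5, 51.9 and 56.0 CPM under ghrelin and 46.98, 48.3 and 50.4 CPM under PBS, with a log2 fold change of 0.091.

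Rpl23a (chr11:78180932-78183584), which sits at the tunnel exit where the signal recognition particle docks, had 78.6, 93.7 and 97.8 CPM in ghrelin livers and 94.1, 98.1 and 101 CPM in PBS livers. Its log2 fold change was -0.10 (SE 0.057, adjusted p = 0.458 by edgeR), and the groups overlapped from 94.1 to 97.8 CPM, with several livers of each in that range. Rpl39 (chrX:37082520-37085402), a short protein of the tunnel wall, had 44.0, 62.2 and 72.7 CPM under ghrelin and 61.1, 64.8 and 70.9 CPM under PBS, a log2 fold change of -0.11 (SE 0.10). The low end came from ghrelin 5 and ghrelin 2, and the log2 fold change was 0.028 without both. Rpl30 had 72.8, 84.3 and 89.95 CPM under ghrelin and 84.9, 88.4 and 89.8 CPM under PBS, with a log2 fold change of -0.075.

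In the small subunit, Rps29, Rps21 and Rps13 had the smallest p on the positive side and Rps23, Rps28 and Rps24 on the negative side. Rps29 (chr12:69157722-69159186), a small zinc-binding protein of the head, had 52.6, 61.6 and 71.4 CPM in ghrelin livers and 50.4, 56.2 and 61.9 CPM in PBS livers. Its groups overlapped over most of the PBS range, and its log2 fold change of 0.15 (SE 0.077, adjusted p = 0.429 by edgeR) was the highest of the family. Rps21 had 61.9, 75.4 and 82.2 CPM under ghrelin and 63.7, 68.9 and 71.5 CPM under PBS, a log2 fold change of 0.10. Rps23 (chr13:90922958-90924950), a protein of the decoding centre, had 74.98, 84.9 and 92.3 CPM under ghrelin and 85.2, 89.9 and 94.3 CPM under PBS, a log2 fold change of -0.092 (SE 0.056). Log2 fold changes of Rps13, Rps28 and Rps24 were 0.078, -0.067 and -0.070.

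**Figure D4:**
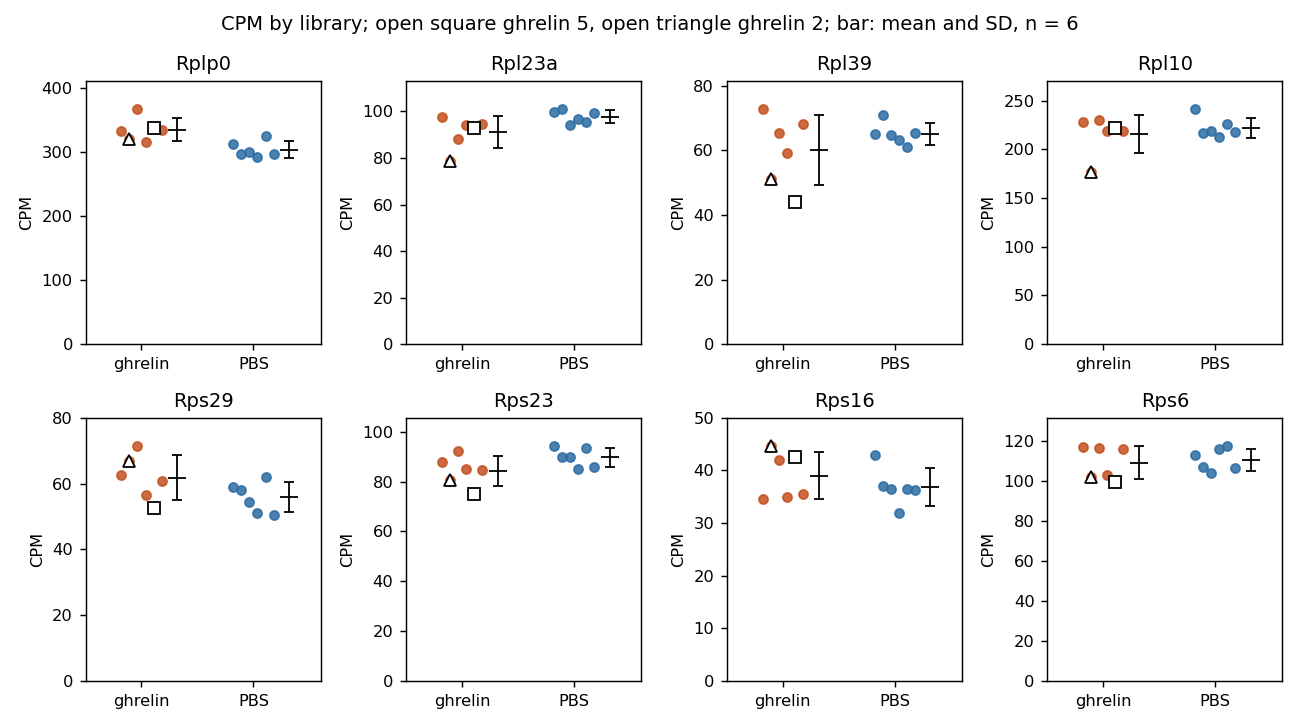
CPM (vertical axes from 0) of 8 genes in each library for ghrelin and PBS, with mean and SD, n = 6; open squares mark ghrelin 5 and open triangles ghrelin 2. In Rpl39, the low ghrelin values are those of ghrelin 5 and ghrelin 2, and in Rpl10 the single low point at 177 CPM is ghrelin 2.

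Groups also overlapped in members with high levels and in Rpl3, which was near the middle of the order per length. Rpl4 had 373, 456 and 505 CPM (lowest, median, highest) in ghrelin livers and 461, 470 and 484 CPM in PBS livers, a log2 fold change of -0.063 (SE 0.071). Its PBS values all lay inside the ghrelin range. Rpl41 had 155, 176 and 184 CPM under ghrelin and 166, 173 and 188 CPM under PBS, a log2 fold change of -0.0044. Rpl3 had 124, 155 and 159 CPM under ghrelin and 139, 152 and 174 CPM under PBS, and Rpl10 had 177, 221 and 230 CPM under ghrelin and 213, 218 and 241 CPM under PBS. In the small subunit, Rps2 had 321, 366 and 378 CPM under ghrelin and 334, 357 and 393 CPM under PBS, a log2 fold change of -0.0062. Rps18 had 139, 153 and 168 CPM under ghrelin and 152, 158 and 172 CPM under PBS, a log2 fold change of -0.040. Over all members, the upper quartile of the absolute log2 fold change was 0.049 in the large and 0.065 in the small subunit, beside 0.20 over all tested genes.

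Genes known for roles beyond the ribosome were likewise within their spread. Rps6, the substrate of the S6 kinases, had 99.8, 110 and 117 CPM in ghrelin livers and 104, 110 and 118 CPM in PBS livers, a log2 fold change of -0.020 (SE 0.060). Rpl5 and Rpl11, which bind the smallest rRNA and, when free, the p53 ligase Mdm2, had log2 fold changes of -0.055 and -0.039. Rps19, mutated in Diamond-Blackfan anaemia, had -0.026, Rpl38, needed for patterning of the mouse skeleton, 0.048, and Rpl13a, known for translational silencing in human myeloid cells, 0.0027. Rps27a, made as a fusion with ubiquitin, had -0.054, and Rpsa, also named the laminin receptor, 0.0065. Rpl22, which in mice is needed by developing T cells, had -0.032, Rps3, also known in DNA repair, -0.017, Rps25, used by some viral entry sites, -0.054, and Rps26 0.064. Of the paralogs, Rpl36a had 0.047 and Rpl36al 0.017, and Rps27 had -0.022 and Rps27l -0.065.

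The livers also differed within each group. Ghrelin 5 held the lowest value of 32 members, 17 large and 15 small, and ghrelin 2 that of 22 members, 16 large and 6 small. Over all tested genes these livers were lowest in 13.8% and 9.36%. Ghrelin 3 held the highest value of 28 members, and ghrelin 1 and PBS 1 that of 19 each. Over all tested genes, ghrelin 3, ghrelin 1 and PBS 1 were highest in 8.60%, 6.73% and 7.55%. The SD of log2 CPM was larger over the ghrelin than over the PBS libraries in 69 of 79 members, 41 large and 28 small, against 52.9% of all genes. The members' median SD was 0.11 log2 units under ghrelin and 0.067 under PBS. Without ghrelin 5 the ghrelin SD was larger in 67 members, and without ghrelin 5 and ghrelin 2 in 54, or 68.4% against 42.0% of all genes. Since the members rise and fall with the same libraries, these counts are not independent observations, and no difference in spread was tested.

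The balance among the members was set apart in the same pair of livers. After subtraction of the family mean of each library, the members' deviations from their own average had an SD of 0.14 log2 units in ghrelin 5 and 0.10 in ghrelin 2, against 0.042 to 0.071 in the other livers. In ghrelin 5, 25 of 79 members lay more than 0.15 from the family mean, in ghrelin 2 it was 10, and elsewhere it was 0 to 3. Across all tested genes, the median absolute deviation from a gene's own average was 0.166 in ghrelin 5 and 0.142 in ghrelin 2. It was 0.158 in PBS 4 and 0.112 to 0.135 in the other livers. Larger deviations in ghrelin 5 were thus not confined to the members. In ghrelin 5 the lowest were Rpl39 at -0.39, Rpl11 at -0.27, Rps27l at -0.24, Rpl5 at -0.23, Rpl36a at -0.22 and Rps7 at -0.22. The highest there were Rps16 at 0.28, Rpl27 at 0.27, Rps15 at 0.20 and Rplp0 at 0.19. Genes of both subunits stood on both sides. Of the printed start-site stretches, those of Rpl39 and Rpl11 hold a C or T run within the first transcribed bases, those of Rpl5 and Rpl27 only before the start, that of Rps16 only the end of a run at its far edge, and those of Rplp0 and Rps15 none. These genes were picked by p or by their level in ghrelin 5, and a relation between such runs and the level was not tested.

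In ghrelin 2, Rps16 at 0.34 and Rps29 at 0.29 were high, while Rpl10, which joins the large subunit late, at -0.21, Rps27a at -0.21 and Rpl3, near the peptidyl transferase centre, at -0.20 were low. Rpl10 had 177 CPM in ghrelin 2 and 219 CPM or more in the other ghrelin livers. GC content was related to the deviations in these and in other livers. Across all genes, the correlation of a gene's deviation with its GC content was 0.26 in ghrelin 2 and 0.23 in ghrelin 5, against -0.25 in PBS 4 and -0.20 in PBS 6, and across the members' relative levels it was 0.37 in ghrelin 5 and 0.28 in ghrelin 2, but also -0.36 in ghrelin 6, -0.27 in ghrelin 1 and -0.36 in PBS 3. With trends in length and GC content removed, the SD of the relative levels was 0.13 in ghrelin 5 and 0.10 in ghrelin 2, and 0.045 to 0.084 in the other livers. Genes share libraries in these correlations, which are given as a description.

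**Figure D5:**
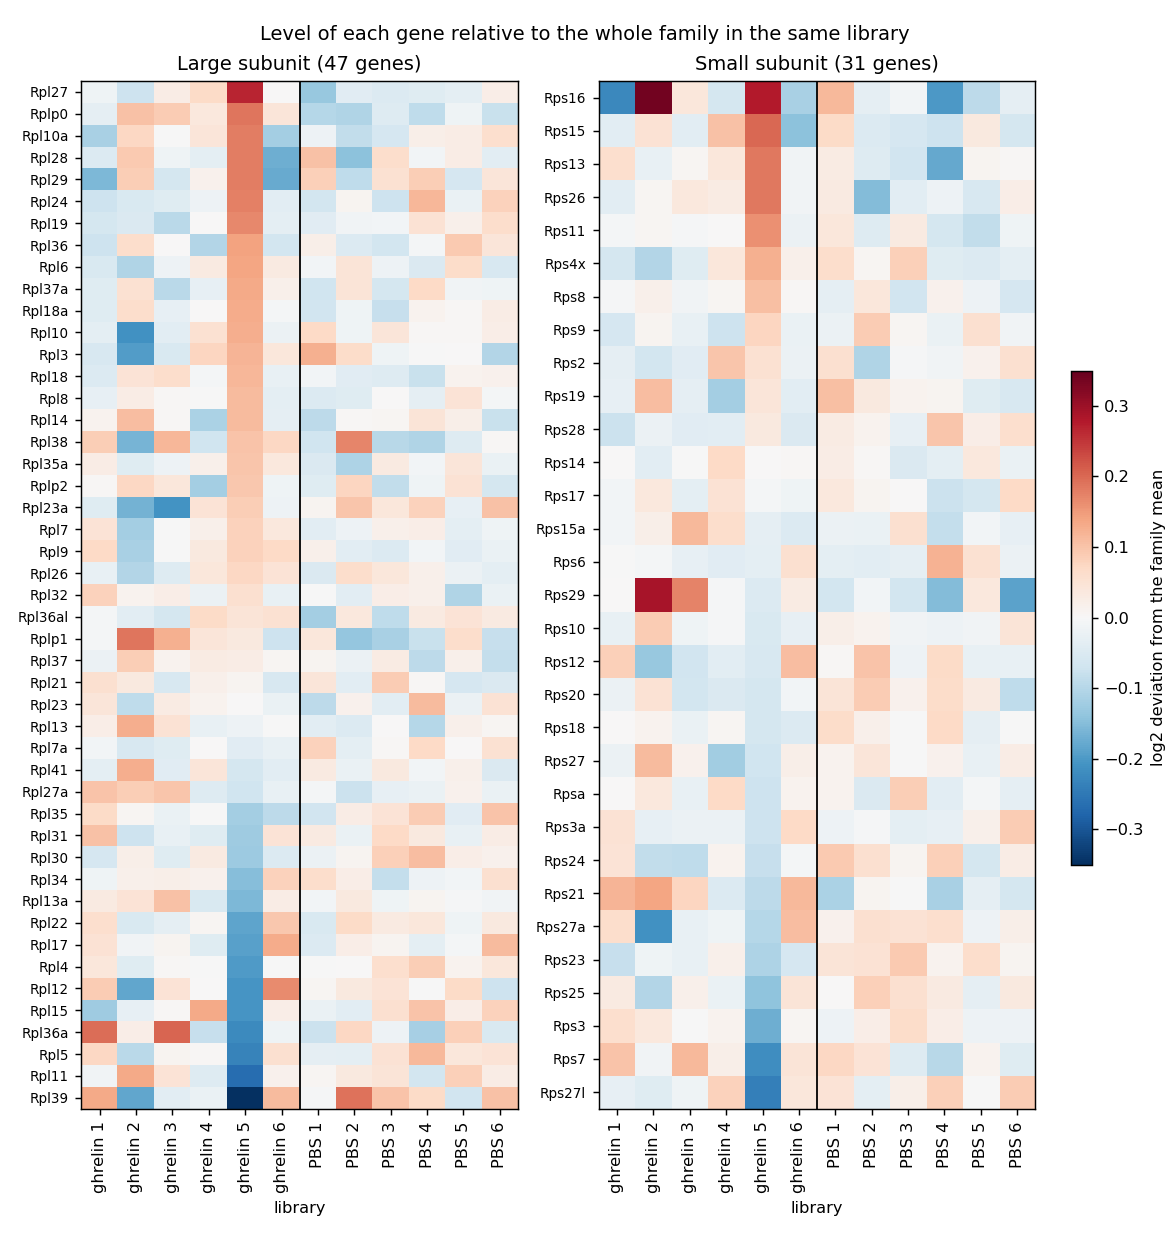
Log2 deviation of each gene from the mean of the family in the same library (colour, ending at 0.35 in either direction), for 47 large and 31 of the 32 small subunit genes (rows, ordered by ghrelin 5) and libraries (columns, ghrelin left of PBS). Ghrelin 5 stands out in both subunits, from Rps16 at 0.28 to Rpl39 at -0.39, and ghrelin 2 shows single genes such as Rps16 at 0.34 and Rpl10 at -0.21.

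The members differed in how steady they were over the PBS livers. Rps16 had an SD of 0.14 log2 units over the PBS livers, Rplp1 0.12, Rps29 0.12 and Rpl38 0.12, whereas Rpl4 had 0.028, Rpl7 0.028, Rps27a 0.034 and Rps3 0.035. Counting alone would give 0.052 for Rps16, but 0.015 for Rpl4, 0.020 for Rpl7, 0.037 for Rps27a and 0.021 for Rps3, so that of Rps27a is at the limit set by its counts. Rpl4 ran from 461 to 484 CPM over the 6 PBS livers but from 373 to 505 CPM over the 6 ghrelin livers. Of the variable genes, Rps16 and Rpl38 are those with the highest pseudogene shares given above, while Rplp1 had a share of 0.0019%. Rps6, Rpl10a and Rpl14, also with high shares, had SDs of 0.072, 0.073 and 0.056 over the PBS livers. A relation between share and SD was not tested. Of the 81 members with a position, 30 have an annotated snoRNA within their span, 6 share exon sequence with another gene on the same strand, and 18 do so with a gene on the opposite strand. The library kit keeps strand, but the strand setting of the counting is likewise not stated, so the opposite-strand overlaps are uncertain as well.

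The pathway around these genes gave few differences and no call among the lists examined, at an adjusted p under 0.05 by edgeR. Of ribosomal proteins outside the naming pattern of the members and their paralogs, log2 fold changes were -0.087 for Fau, -0.0080 for Gnb2l1 (Rack1), 0.0023 for Rpl22l1 and -0.029 for Rpl7l1, 0 at an unadjusted p under 0.05. Of 17 translation factors and related genes with TOP mRNAs, 6 were positive and 11 negative, with a median of -0.023 and 1 at an unadjusted p under 0.05. This was Vim, an intermediate filament gene also made by non-hepatocytes, with 11.8 to 16.3 CPM under ghrelin and 13.7 to 22.2 CPM under PBS. Npm1, a nucleolar chaperone, followed at a log2 fold change of -0.13 (SE 0.068).

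Ribosome biogenesis genes numbered 41, of which 14 were positive and 27 negative; their median was -0.084 on the log2 scale, with 4 at an unadjusted p under 0.05, beside 13.4% of all genes. The smallest p were those of Gnl2, a nucleolar GTPase, at -0.16 (SE 0.060, adjusted p = 0.271 by edgeR) and Nop14, of small subunit processing, at -0.22 (SE 0.087). Of 9 chaperones and importers of ribosomal proteins, 1 had an unadjusted p under 0.05, Ipo4 at 0.16, and the median was -0.075. Heatr3, which in human cells brings RPL5 to the nucleus, had -0.15. Of 22 genes of mTOR signalling and TOP control, 11 were positive and 11 negative, with 3 at an unadjusted p under 0.05. Ddit4, an inhibitor of mTOR complex 1 signalling, had 3.17 to 7.47 CPM in ghrelin livers and 4.33 to 13.6 CPM in PBS livers, or -0.82 on the log2 scale (SE 0.25; adjusted p = 0.202 by edgeR). Rps6kb1, the kinase of Rps6, had 33.5 to 36.4 CPM in ghrelin livers and 36.6 to 44.3 CPM in PBS livers. The groups of Rps6kb1 did not overlap, at -0.17 on the log2 scale (SE 0.056; adjusted p = 0.223 by edgeR).

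The mitochondrial ribosome, which shares no protein with the cytosolic one, was the comparison family of similar size. Of 79 tested rows named for its proteins, which include the pseudogene rows Mrps36-ps1, Mrpl48-ps and Mrpl23-ps1, 49 were positive and 30 negative. Pseudogene rows are not among the cytosolic members. The median of the 79 was 0.029 on the log2 scale, with 8 at an unadjusted p under 0.05, beside 13.4% of all genes. Mrpl28 had 29.8 to 33.0 CPM in ghrelin livers and 25.2 to 28.9 CPM in PBS livers, which did not overlap, at 0.21 on the log2 scale (SE 0.053; adjusted p = 0.147 by edgeR). Mrps21 had a log2 fold change of 0.21 as well. Over all tested genes, 0.826% had groups without overlap. Among 6 genes of ribosomal stress and p53, 2 were positive and 4 negative with 0 at an unadjusted p under 0.05, and 6 snoRNA host genes with TOP mRNAs had 1 positive, 5 negative and a median of -0.038, also with 0. The 47 tested pseudogene rows had 23 positive and 24 negative log2 fold changes, a median of -0.0035, and 1 unadjusted p under 0.05.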

How the data were processed

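Liver total RNA was depleted of rRNA and made into stranded libraries, per the labels' protocols. The authors deposited raw counts of reads per gene, not normalised. Their alignment used STAR 2.4.0i and mm10, per the submitters' processing notes. For the counting tool, annotation, strand setting and multiply mapped reads, nothing is given in the sources used here. Here, edgeR 4.0.16 (R 4.3.3) filtered genes (filterByExpr, minimum count 10, total 15), scaled by TMM and tested ghrelin over PBS by the two-sided quasi-likelihood F test over all 14170 genes, with Benjamini-Hochberg adjusted p under 0.05 as threshold and SE from the F statistic. Log2 CPM used a prior count of 2. The fit was tested on simulated counts. Alternatives used DESeq2 1.42.0 and limma 3.58.1. Each library is taken as 1 animal, which no label states; otherwise p-values measure only the spread between samples. Replicates within a group differed by 11.6 to 48.5 times counting variance. PCR copies are not independent molecules.

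Members and lists were chosen with earlier results of these data known. Genes named are, per subunit, the 3 smallest p in each direction, the 3 highest and lowest levels per length, the 2 most and 2 least variable over PBS, preset genes, paralogs and genes below the filter, and up to 2 genes per list. Genes named only for ghrelin 5 or ghrelin 2, or for pseudogenes, were chosen after their values were seen. Values of some genes under this rule are not reported here.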

Additional observations from a re-analysis of the deposited data

Results flagged for a closer look

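Of 98 sets of 6 values checked for a sample far from the other 5 of its group, 4 held one, and chance alone flags about 1 set in 20. In ghrelin 2, Rpl3 had 124 CPM where the next liver of the group had 153 CPM, Rpl10 had 177 CPM next to 219 CPM, and Rps4x had 156 CPM next to 178 CPM. The mean of the large minus that of the small subunit genes in ghrelin 2 was -0.037 log2 CPM, next to -0.0068. All 4 sets concern ghrelin 2, which was also set apart in the balance of the members. Both rest on the same members' values in the same libraries, so they are not separate observations. The cause was not tested.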

How the results depend on the processing

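Members called stayed at 0 in all 25 alternative fits, with a smallest adjusted p of 0.130 (DESeq2, Rplp0) and a largest absolute log2 fold change of 0.19. The number of all genes called, 15, was 63 with no filter on low counts, 9 with robust estimation, 6 with length and GC trends removed, 202 with DESeq2, 3 without both ghrelin 5 and ghrelin 2 (added after seeing the data), and 0 to 32 without 1 library. It was 0 without ghrelin 1 (1675 genes at an unadjusted p under 0.05) or ghrelin 3 (1536 genes). The labels do not say whether a shared replicate number pairs samples, and these values do not settle it. Deviations of same-numbered livers correlated from -0.081 to 0.27, and 3 of 6 were best with their own number. A fit with the replicate block called 58 genes and 0 members. Medians of the large subunit ran from -0.018 to 0.027 and of the small subunit from -0.032 to 0.015 without 1 library. With the 50 top genes left out of the total, the family share was 1.53% under ghrelin and 1.53% under PBS, and with pseudogene rows 1.04% under PBS. Of 1100 refitted log2 fold changes of named members, 29 moved by over 1 SE. Among all members, 37 of 78 moved that far with length and GC trends removed. Without both ghrelin 5 and ghrelin 2 it was 20 of 79, and in each other fit 0. With another transcript length, 52 of 94 levels per length of named members moved by over 1 SD. Each library held at least 416 counts of each tested member. Counting alone gives an SD of 0.015 to 0.056 log2 units over PBS livers, depending on the gene. The SD of Rpl4, 0.028, was above its own counting value of 0.015, whereas that of Rps27a was at its limit.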
